A study of Homo sapiens with 9 samples.

Results

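The genes described here are 10 listed members of the BCL2 family, BCL2L1, MCL1, BCL2L11, BAX, BAK1, BAD, BID, BBC3, PMAIP1 and BCL2L12, out of 58214 genes to which the quantified transcripts could be assigned. They account for 79 of 203027 transcripts, and they were taken by name, not by any measured value. Polyadenylated RNA was sequenced from K562, an immortalised human leukaemia cell line that carries the BCR-ABL1 fusion and lacks functional p53. Cells were harvested 4 days after the first siRNA transfection, which the study repeated on day 3 with the same siRNAs. The 9 libraries fell into 3 groups of 3: cells given a control siRNA with no target (SCR), cells depleted of DHX34 and cells depleted of UPF1 by siRNA. The labels describe siRNA transfection for every library, SCR included, but also mark the SCR libraries as WT under treatment; they were grouped by title. All libraries come from 1 cell line, the knockdowns were partial, and the study describes its replicates as biological. DHX34 is an RNA helicase that acts in NMD, nonsense-mediated mRNA decay, by which cells remove mRNAs whose stop codon comes too early, and UPF1 is the central helicase of that pathway.

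The BCL2 family decides whether the outer mitochondrial membrane is permeabilised, the step that commits a cell to intrinsic apoptosis. Guardians such as BCL-XL (from BCL2L1) and MCL1 hold the pore-forming effectors BAX and BAK in check, and the BH3-only proteins (BIM from BCL2L11, BID, BAD, PUMA from BBC3, NOXA from PMAIP1) bind guardians or effectors and tip the balance. Several of these genes produce isoforms with a different or opposite activity by alternative splicing, so both the sum over a gene and the share of each isoform were measured. Erythroid cells, which K562 resembles, depend largely on BCL-XL for survival.

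The targeted genes were lower in their own libraries. DHX34 was at 72.3, 74.0 and 74.5 CPM (counts scaled to library size by TMM across the 9 libraries) in SCR and at 30.1, 30.04 and 33.99 in the DHX34 knockdown. UPF1 was at 252, 266 and 266 CPM in SCR and at 105, 107 and 105 in the UPF1 knockdown. Library totals ran from 73478797 to 103625443 expected counts, and every member had at least 973.8 of them in every library. All 10 K562 markers examined, globins and erythroid factors among them, were above 1 TPM (a level per transcript length) in every library. Of 10 markers of lymphoid, epithelial and myelomonocytic cells, MS4A1, CD8A and KRT5 were at 0 throughout and EPCAM and LYZ were above 1 TPM in every library. The summed K562 markers lay between 25574 and 27167 TPM in SCR, 23555 and 25653 in the DHX34 knockdown, and 15533 and 16740 in the UPF1 knockdown. This sum is mostly globin mRNA, as HBG2, HBE1, HBG1 and HBZ averaged 12548, 5653, 5401 and 1766 TPM in SCR. The summed markers of other cells were at 87.7 to 90.5, 104.8 to 113.4 and 81.6 to 88.9 TPM, with 1 of 3 tested called higher upon DHX34 and 2 of 4 lower upon UPF1 knockdown. EPCAM alone averaged 72.3 TPM in SCR. Of the K562 markers 2 fell upon DHX34 knockdown, and 6 fell and 1 rose upon UPF1 knockdown. Over all genes tested, 10.4% were called upon DHX34 and 25.3% upon UPF1 knockdown. The part of either list in the changes below was not tested. In RNA from whole cultures, fewer cells of a kind and less RNA per cell cannot be told apart.

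In SCR the members spanned a wide range of levels per length. BCL2L12 was highest at 182 ± 5.91 TPM (SD, n = 3, as for all means below), followed by BAX at 125 ± 6.62, BCL2L1 at 122 ± 2.10, MCL1 at 92.4 ± 3.27 and BID at 73.0 ± 3.03. BAK1 stood at 26.8 ± 0.978, BAD at 21.8 ± 1.54, PMAIP1 at 15.1 ± 0.771, BBC3 at 14.4 ± 1.02 and BCL2L11 at 5.75 ± 0.359. Neighbours in this order did not overlap between libraries except BAX with BCL2L1 and PMAIP1 with BBC3. The effector BAX was thus present at a higher level per length than BAK1, and of the guardians BCL2L1 stood above MCL1. The order of these guardians holds for TPM only, as by counts MCL1 averaged 319 CPM and BCL2L1 214 CPM in SCR. Several BCL2L1 models are also shorter in the deposited index than in the annotation used here. A model with 381 in place of 2441 bases averaged 22.4 TPM in SCR. The part of the shortened models in this order was not tested.

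The comparisons with SCR ask how losing DHX34, or UPF1, alters these genes, and the knockdowns were compared directly with each other. A gene was called when edgeR's quasi-likelihood test gave an adjusted p (Benjamini-Hochberg, over all genes tested) no higher than 0.005. Upon UPF1 knockdown, BAK1 and PMAIP1 rose and MCL1, BAX and BCL2L12 fell, 5 of 10 members, where 25.3% of all 17184 genes tested were called, 12.4% up and 12.9% down. Upon DHX34 knockdown, PMAIP1 alone was called, and fell; over all 17004 genes 10.4% were called and 4.86% fell. Between the knockdowns, 4 members were called, BAK1, BBC3 and PMAIP1 higher and MCL1 lower in the UPF1 knockdown, beside 17.4% of 17435 genes, 9.89% higher and 7.47% lower. The widest of these differences was 1.62-fold. The median log2 fold change of the 10 members was -0.13 for DHX34, -0.07 for UPF1 and 0.04 between the knockdowns, against 0.02, 0.02 and 0.01 over all genes. Both knockdowns share the SCR libraries, so agreement between their changes is not independent.

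**Figure D1:**
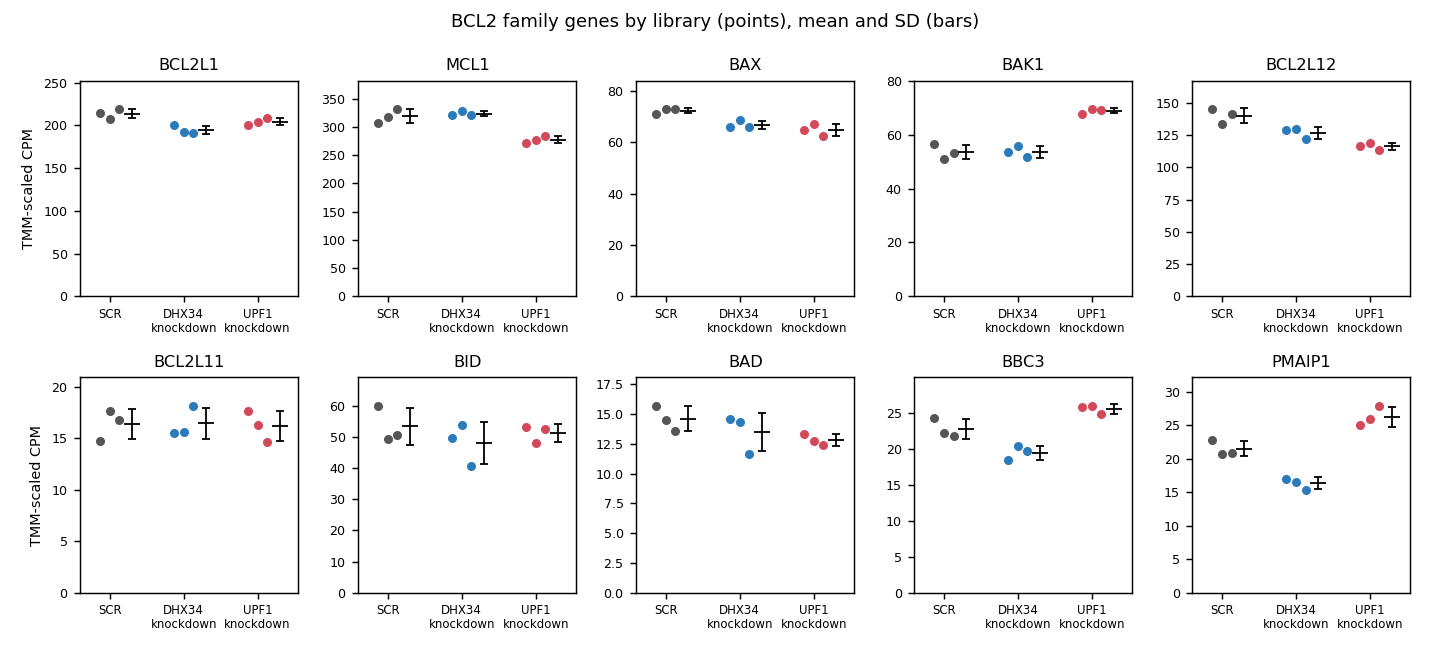
CPM of the 10 BCL2 family genes in each of the 9 libraries (points) with the mean and SD of each group (bars to the right of the points), y axes from 0. PMAIP1 is lowest in the 3 DHX34 knockdown libraries (15.4 to 17.05) and highest in the 3 UPF1 knockdown libraries (25.0 to 28.0), and BAK1 is higher in the UPF1 knockdown libraries (67.9 to 69.6) than in all others.

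The scale matters for the falls. On TPM, the median of all genes was shifted by 0.16 upon DHX34 knockdown and 0.21 upon UPF1 knockdown (log2), and limma on log2(TPM + 0.5) called 911 genes up and 125 down for DHX34, and 3413 up and 313 down for UPF1, in place of 942 up and 826 down, and 2131 up and 2214 down. On that scale BAK1, PMAIP1 and BBC3 were called higher upon UPF1 knockdown and none of the members lower. With library medians made equal, an alternative added after seeing the data, 6 members were called, BAK1 up and 5 down. The falls given below are therefore relative to the bulk of expressed genes, as TMM defines it.

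BCL2L1 (ENSG00000171552, chromosome 20, 31664452 to 31723989, minus strand) encodes BCL-XL, the guardian on which erythroid cells rely. It was at 214, 208 and 219 CPM in SCR, 200.1, 192 and 191 in the DHX34 knockdown, and 201, 204 and 208 in the UPF1 knockdown. The DHX34 knockdown libraries all lay below the SCR libraries, but the difference was 0.908-fold (log2 fold change -0.14, SE 0.04, adjusted p 0.0172) and did not reach the threshold with edgeR, although DESeq2 called it (adjusted p 0.00191). On TPM the difference was 0.01 (limma adjusted p 0.842). UPF1 knockdown gave -0.07 (SE 0.03, edgeR adjusted p 0.0622). Its exons share 1735 of 4197 bases with the antisense gene ABALON, which was at 4.82 TPM on average, and whether counting used strand is not given in the sources used here.

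BCL2L1 is the textbook case of opposing isoforms. Use of a donor site inside exon 2 removes 189 bases (chromosome 20, 31721655 to 31721843) and yields the short form BCL-XS, which promotes apoptosis, in place of BCL-XL. Both donor sites are shown because they decide between these products. They are written from 20 bases of exon into the intron, with the first 2 intron bases of each choice in capitals (GRCh38, minus strand), the short donor at chr20:31721824-31721863 and the long donor at chr20:31721635-31721674.
BCL2L1 short donor: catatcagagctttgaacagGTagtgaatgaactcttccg
BCL2L1 long donor: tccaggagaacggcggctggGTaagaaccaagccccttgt
The 2 transcripts that use the short donor, which encode 170 residues in place of 233, made up 14.7, 15.05 and 14.9% of the TPM of both forms in SCR. They made up 15.4% in each DHX34 knockdown library, and 16.5, 14.7 and 14.9% in the UPF1 knockdown. The DHX34 knockdown libraries lay just above SCR, a difference of 0.509 percentage points (exact permutation p = 0.1, two-sided, the smallest that 3 libraries against 3 allow), and no longer did so when expected counts replaced TPM. The UPF1 knockdown overlapped with SCR (exact permutation p = 0.8, two-sided). Several BCL2L1 models are shorter in the deposited index than in the annotation used here, one of them with 381 in place of 2441 bases, so these shares rest on partial transcripts.

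MCL1 (ENSG00000143384, chromosome 1, 150560895 to 150579738, minus strand) encodes a short-lived guardian whose protein and mRNA turn over rapidly. It was at 307, 318 and 332 CPM in SCR, 321, 328 and 321 in the DHX34 knockdown, and 271, 278 and 283 in the UPF1 knockdown. All UPF1 knockdown libraries were below all others. MCL1 fell 0.866-fold upon UPF1 knockdown (log2 fold change -0.21, SE 0.03, edgeR adjusted p 0.000214) and was 0.865-fold in the UPF1 against the DHX34 knockdown (-0.21, SE 0.03, edgeR adjusted p 0.000359), each called in all 6 fits without 1 library. On the TPM scale the difference from SCR was -0.01 and was not called (limma adjusted p 0.878), and between the knockdowns it was -0.19 and just missed the threshold (0.00514). DHX34 knockdown gave 0.02 (SE 0.04, edgeR adjusted p 0.765).

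The full-length MCL1-202, of 350 residues, held 94.6, 94.7 and 96.9% of the gene's TPM in SCR. Skipping of exon 2 (248 bases, chromosome 1, 150578244 to 150578491) gives MCL1-201, of 271 residues, a form that promotes cell death. It made up 2.51, 2.53 and 1.60% in SCR, 2.93, 3.35 and 3.60% in the DHX34 knockdown, and 0.998, 2.79 and 1.47% in the UPF1 knockdown, as a share of transcripts that either contain or skip the exon. The DHX34 knockdown libraries were above SCR by 1.08 percentage points (exact permutation p = 0.1, two-sided), while the UPF1 knockdown overlapped with SCR.

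BAX (ENSG00000087088, chromosome 19, 48954815 to 48961798, plus strand) encodes a pore-forming effector. It was at 71.1, 72.9 and 72.8 CPM in SCR, 66.1, 68.5 and 65.8 in the DHX34 knockdown, and 64.8, 67.0 and 62.4 in the UPF1 knockdown. Both knockdowns lay below SCR. The fall passed the threshold for UPF1 (0.891-fold, log2 fold change -0.17, SE 0.04, edgeR adjusted p 0.00275) and not for DHX34 (-0.12, SE 0.04, edgeR adjusted p 0.0461). The UPF1 call was lost in 4 of 6 fits that left out 1 library, those without SCR replicate 2 or 3 or UPF1 knockdown replicate 1 or 3, with adjusted p up to 0.0150. With length and GC trends removed it was -0.07, and on the TPM scale the sign turned to 0.02.

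BAX transcripts were divided among several forms. BAX-202, the canonical 192 residues, held 42.5, 37.8 and 40.7% of the gene's TPM in SCR, 40.2, 36.6 and 35.7% in the DHX34 knockdown, and 28.8, 34.8 and 33.5% in the UPF1 knockdown. BAX-201, of 218 residues, keeps the last intron (617 bases, chromosome 19, 48960915 to 48961531) and held 21.9, 21.8 and 23.3%, 22.7, 24.3 and 22.5%, and 26.2, 26.0 and 25.6%, in the same order. In the UPF1 knockdown the canonical form lay below and the intron-keeping form above SCR without overlap, but neither share was called (limma adjusted p 0.120 and 0.107). Relative to forms that splice this intron, those that keep it averaged 26.2 ± 0.885% under SCR against 32.2 ± 1.95% with UPF1 depleted (exact permutation p = 0.1, two-sided). The NMD class, chiefly BAX-211, a fragment that skips exon 2, was at 10.95, 14.6 and 12.5% in SCR and 19.4, 14.5 and 13.3% in the UPF1 knockdown, so the groups overlapped. BAX-203, which skips exon 3 (147 bases) in frame to 143 residues, overlapped between all groups.

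BAK1 (ENSG00000030110, chromosome 6, 33572547 to 33580293, minus strand) encodes BAK, the effector that resides on mitochondria. It was at 56.5, 51.2 and 53.2 CPM in SCR, 53.5, 55.7 and 51.6 in the DHX34 knockdown, and 67.9, 69.6 and 69.3 in the UPF1 knockdown. The UPF1 knockdown libraries stood above all 6 others. BAK1 rose 1.28-fold upon UPF1 knockdown (log2 fold change 0.36, SE 0.04, edgeR adjusted p 2.45e-05), and DHX34 knockdown gave -0.00 (SE 0.05, edgeR adjusted p 0.982). Between the knockdowns it differed 1.30-fold (0.38, SE 0.04, edgeR adjusted p 2.64e-05). The rise from SCR was called in all 6 fits that left out 1 library.

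BAK1 has a microexon of 20 bases (chr6:33574506-33574525) whose inclusion shifts the reading frame, so that BAK1-202 encodes 153 residues in place of 211 and ends 89 bases before the last exon junction. The stretch is shown with the microexon in capitals and 20 intron bases on each side (GRCh38, chr6:33574486-33574545, minus strand).
BAK1 microexon: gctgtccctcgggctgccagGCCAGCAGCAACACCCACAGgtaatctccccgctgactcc
The microexon was included in 6.66, 4.60 and 2.79% of BAK1 TPM in SCR, 7.67, 6.02 and 6.74% in the DHX34 knockdown, and 6.43, 2.56 and 2.83% in the UPF1 knockdown. All groups overlapped (exact permutation p = 0.2 for DHX34 and 0.6 for UPF1, two-sided), and BAK1-201 held 93.6, 97.4 and 97.2% of the gene in the UPF1 knockdown. The 3 genes whose log2 CPM followed BAK1 most closely across the 9 libraries, out of 10061 genes that averaged 5 CPM or more, were LRRC8D (Pearson r = 0.990), METTL4 (r = 0.989) and TIMM10B (r = 0.989), over libraries that share their group structure.

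BH3-only genes differed from one another. BCL2L11 (ENSG00000153094, chromosome 2, 111119378 to 111168444, plus strand), which encodes BIM, a binder of all guardians, was at 14.8, 17.7 and 16.8 CPM in SCR, 15.6, 15.6 and 18.2 in the DHX34 knockdown, and 17.6, 16.3 and 14.7 in the UPF1 knockdown. The groups overlapped fully, with log2 fold changes of 0.00 and -0.03 (SE 0.08 each, edgeR adjusted p 0.986 and 0.820). Of its 14 transcripts 8 had any counts. Its exons share 727 of 6742 bases with the antisense gene MIR4435-2HG, at 119 TPM on average.

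BIM exists as an extra-long form (BCL2L11-204, 198 residues) and a long form (BCL2L11-201, 138 residues), which is the more potent killer and arises when a 180-base intron inside the coding exon is spliced out (chromosome 2, 111123870 to 111124049). Its ends are shown because they separate these forms, with the first and last 2 intron bases in capitals (GRCh38, plus strand), the donor at chr2:111123855-111123884 and the acceptor at chr2:111124030-111124064.
BCL2L11 inner intron donor: agacagagccacaagGTaatcctgaaggca
BCL2L11 inner intron acceptor: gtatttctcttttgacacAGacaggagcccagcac
Transcripts without this intron made up 37.2, 28.2 and 29.4% in SCR, 33.4, 38.4 and 32.2% in the DHX34 knockdown, and 40.1, 44.1 and 47.7% in the UPF1 knockdown. The UPF1 knockdown libraries all lay above SCR, by 12.4 percentage points (exact permutation p = 0.1, two-sided). BCL2L11-201 alone held 31.3 ± 5.30% of the gene in SCR and 42.7 ± 3.63% in the UPF1 knockdown, and its share was not called (limma adjusted p 0.266). The counts behind it are low, between 1036 and 1546 for the whole gene. BCL2L11-203, a fragment of 482 bases in the index against 5171 in the annotation, was at 12.9, 10.4 and 17.5% in SCR and 2.65, 2.50 and 6.18% in the DHX34 knockdown, not overlapping and not called (limma adjusted p 0.159).

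BID (ENSG00000015475, chromosome 22, 17734138 to 17774770, minus strand), which links death receptors to mitochondria once caspases cleave it, was at 60.2, 49.4 and 50.8 CPM in SCR, 49.7, 53.9 and 40.9 in the DHX34 knockdown, and 53.3, 48.0 and 52.7 in the UPF1 knockdown. Its libraries scattered widely within groups, and neither log2 fold change, -0.15 (SE 0.10, edgeR adjusted p 0.302) and -0.07 (SE 0.07, edgeR adjusted p 0.486), was called. The transcript BID-208, of 195 residues, however, held 56.8, 54.8 and 56.3% of the gene's TPM in SCR, 61.4, 63.0 and 61.7% in the DHX34 knockdown, and 46.3, 48.5 and 47.7% in the UPF1 knockdown. The 3 groups did not overlap with one another. The share fell upon UPF1 knockdown by 0.49 in log2 odds (SE 0.09, limma adjusted p 0.0460), a call lost with replicate number as a block (adjusted p 0.166), with no minimum share (0.328) and in each of 6 fits without 1 library (0.0798 or above). By diffSpliceDGE its change was -0.27 and not called. The difference upon DHX34 knockdown, 0.36 (SE 0.09), was not called (limma adjusted p 0.180).

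The full-length product as a whole is made by a pair of transcripts. BID-211, which has the same coding sequence and another untranslated part, was at 6.54, 0 and 0% in SCR and 6.61, 5.84 and 9.21% in the UPF1 knockdown. Together both transcripts held 63.4, 54.8 and 56.3% in SCR. They held 63.1, 66.7 and 61.7% in the DHX34 knockdown, and 52.9, 54.3 and 56.9% in the UPF1 knockdown. The share of the 195-residue product thus overlapped with SCR in both knockdowns. The 99-residue product, from BID-203 and 2 minor transcripts, was at 18.3, 21.9 and 19.9% in SCR, 17.4, 16.2 and 16.6% in the DHX34 knockdown, and 22.3, 20.7 and 19.9% in the UPF1 knockdown, lower than SCR in the DHX34 knockdown without overlap (exact permutation p = 0.1, two-sided).

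BAD (ENSG00000002330, chromosome 11, 64269830 to 64284704, minus strand), a sensitiser that binds BCL-XL and is silenced by survival kinases, was at 15.7, 14.5 and 13.6 CPM in SCR, 14.5, 14.3 and 11.7 in the DHX34 knockdown, and 13.3, 12.8 and 12.4 in the UPF1 knockdown. The UPF1 knockdown libraries lay below SCR, and the difference, -0.20 on the log2 scale (SE 0.07, edgeR adjusted p 0.0364), did not pass the threshold. DHX34 knockdown gave -0.11 (SE 0.09, edgeR adjusted p 0.435). Products of 168 residues held 76.7 to 91.7% of its TPM over all libraries. Its exons share 404 of 1708 bases with the antisense gene GPR137, at 17.96 TPM.

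BBC3 (ENSG00000105327, chromosome 19, 47220822 to 47232766, minus strand) encodes PUMA, a binder of all guardians known as a p53 target. It was at 24.3, 22.2 and 21.7 CPM in SCR, 18.4, 20.4 and 19.6 in the DHX34 knockdown, and 25.8, 26.0 and 24.8 in the UPF1 knockdown. No groups overlapped, with the DHX34 knockdown below and the UPF1 knockdown above SCR. Neither passed the threshold against SCR, with log2 fold changes of -0.23 (SE 0.06, edgeR adjusted p 0.0224) and 0.16 (SE 0.05, edgeR adjusted p 0.0307). Between the knockdowns BBC3 was 1.32-fold higher in the UPF1 knockdown (0.40, SE 0.05, edgeR adjusted p 0.000211), and this was called in all 6 fits without 1 library. BBC3-203, the 193-residue product, held 85.5, 81.1 and 86.8% of its TPM in SCR and 77.9, 78.7 and 78.0% in the DHX34 knockdown, not called (limma adjusted p 0.326).

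PMAIP1 (ENSG00000141682, chromosome 18, 59899996 to 59904305, plus strand) encodes NOXA, which binds MCL1 and promotes its degradation. It was at 22.8, 20.7 and 20.9 CPM in SCR, 17.05, 16.6 and 15.4 in the DHX34 knockdown, and 25.0, 25.9 and 28.0 in the UPF1 knockdown. No groups overlapped, and the knockdowns lay on opposite sides of SCR. PMAIP1 fell 0.760-fold upon DHX34 knockdown (log2 fold change -0.40, SE 0.06, edgeR adjusted p 0.00138) and rose 1.22-fold upon UPF1 knockdown (0.29, SE 0.06, edgeR adjusted p 0.00159). The direct difference was 1.62-fold (0.70, SE 0.06, edgeR adjusted p 8.88e-06) and was called in all 6 fits without 1 library. The fall upon DHX34 knockdown was not called without SCR replicate 1 (adjusted p 0.00733) or SCR replicate 3 (0.00553), nor on TPM (limma, -0.19, adjusted p 0.0351) or with length-scaled counts (0.0123), and the rise upon UPF1 knockdown was not called without SCR replicate 2 or 3 or UPF1 knockdown replicate 2 or 3 (up to 0.0107), nor with length-scaled counts (0.00839) or on TPM with medians equal (limma, 0.22, adjusted p 0.0208).

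PMAIP1-202, the 54-residue product, held 96.7 to 99.6% of the gene's TPM over all libraries. Inclusion of a middle exon of 151 bases (chromosome 18, 59900428 to 59900578) stood at 1.32, 1.42 and 0.364% in SCR, 1.59, 1.56 and 3.06% in the DHX34 knockdown, and 2.72, 3.31 and 3.35% in the UPF1 knockdown. It was above SCR in both knockdowns without overlap (exact permutation p = 0.1 each, two-sided), at a few percent of a low gene.

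**Figure D2:**
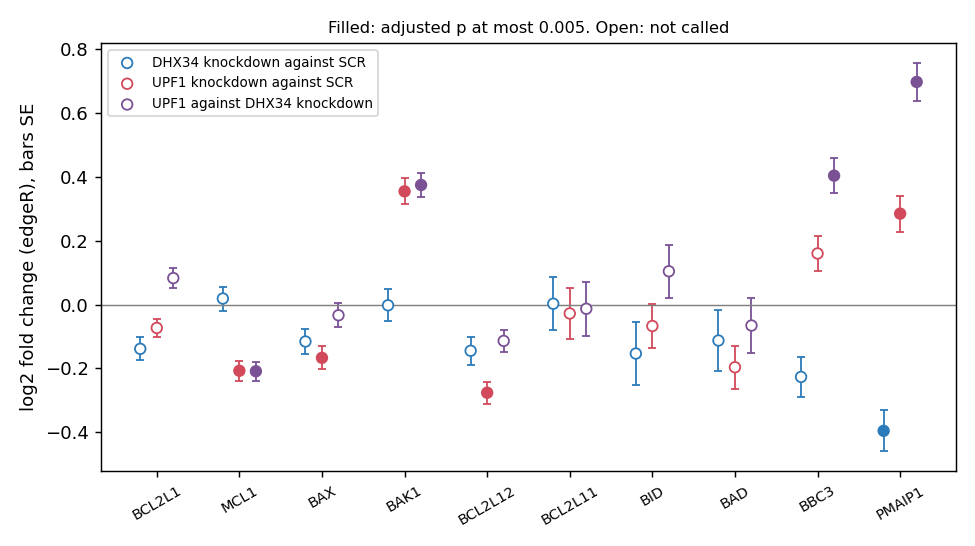
Log2 fold changes (y axis, edgeR, bars SE) of each member for the DHX34 knockdown against SCR, the UPF1 knockdown against SCR and the UPF1 against the DHX34 knockdown, filled where the adjusted p is at most 0.005. PMAIP1 spans the widest range, from -0.40 to 0.70, and BCL2L11 lies at 0 within its SE in all 3. The falls of MCL1, BAX and BCL2L12 upon UPF1 knockdown are called on the TMM scale, that of BAX in only 2 of 6 fits without 1 library. On TPM 0 members are called lower, and BAX turns to 0.02.

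BCL2L12 (ENSG00000126453, chromosome 19, 49665142 to 49673916, plus strand) encodes a proline-rich relative of the family known to counter caspases and p53. It was at 145, 134 and 142 CPM in SCR, 129, 130.1 and 122 in the DHX34 knockdown, and 116, 119 and 114 in the UPF1 knockdown. No groups overlapped, and on this scale the levels descended from SCR through the DHX34 to the UPF1 knockdown. BCL2L12 fell 0.826-fold upon UPF1 knockdown (log2 fold change -0.28, SE 0.04, edgeR adjusted p 5.81e-05, called in all 6 fits without 1 library), and the difference upon DHX34 knockdown was -0.14 (SE 0.04, edgeR adjusted p 0.0327), not called. On TPM the UPF1 difference was -0.05 and the DHX34 difference 0.00, and neither was called (limma adjusted p 0.238 and 0.951). Its exons share 734 of 2833 bases with the antisense gene IRF3, at 88.2 TPM.

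Of the members, BCL2L12 showed the clearest change of isoforms. The annotation lists a main form, BCL2L12-201, with 7 exons and 250 residues. Both BCL2L12-207 and BCL2L12-204 skip exon 3, whose 143 bases are not a multiple of 3 (remainder 2), and share an identical coding sequence of 92 residues that ends at a premature stop in exon 5. They differ in what follows: BCL2L12-207 keeps exon 6 and has 2 junctions after the stop, the last of them 280 bases away, while BCL2L12-204 lacks exon 6 and has 1 junction 7 bases after the stop. A stop more than about 50 bases before the last junction is the usual mark of an NMD substrate, and the annotation assigns that biotype to BCL2L12-207 and a protein coding biotype to BCL2L12-204. BAK1-202 (89 bases, protein coding biotype), BAX-211 (55, NMD biotype) and BAX-204 (77, NMD biotype) also have such a stop. Their shares overlapped with SCR upon UPF1 knockdown.

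**Figure D3:**
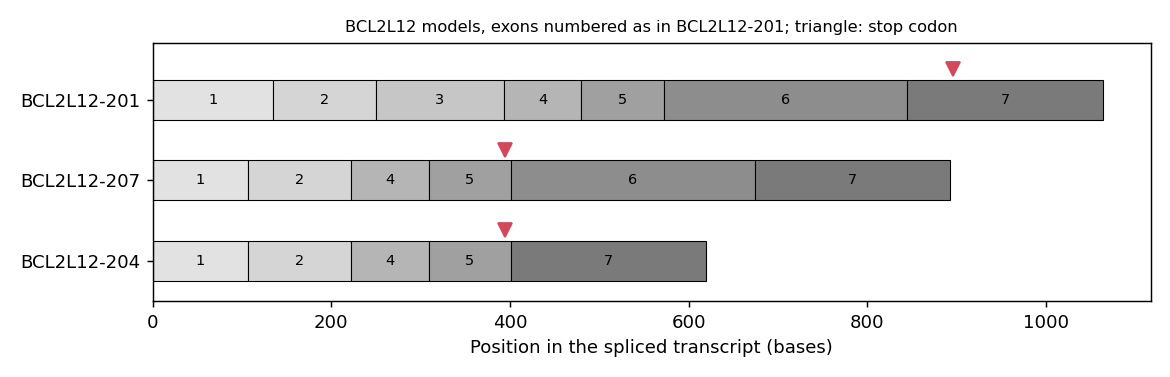
Exon structure of 3 BCL2L12 transcripts drawn to scale along the spliced transcript (x axis, bases), with exons numbered as in BCL2L12-201 and the stop codon as a triangle. BCL2L12-207 and BCL2L12-204 have the stop at the same base, 394, and differ by the 273 bases of exon 6.

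The sequences behind this difference are given on the plus strand of GRCh38. The skipped exon, with 20 bases of each intron and the splice dinucleotides in capitals, lies at chr19:49666999-49667181. The joined ends of exons 2 and 4, with exon 4 in capitals, take 15 bases on each side and lie within chr19:49666785-49668865. Exon 5, with the stop codon of the shifted frame in capitals, lies at chr19:49669024-49669115.
BCL2L12 exon 3: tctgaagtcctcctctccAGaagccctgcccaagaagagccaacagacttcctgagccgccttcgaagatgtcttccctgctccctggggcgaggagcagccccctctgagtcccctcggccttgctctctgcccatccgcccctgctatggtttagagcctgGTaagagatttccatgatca
BCL2L12 exon 2 to 4: tccaactccacctagGCCCAGCTACTCCAG
BCL2L12 exon 5: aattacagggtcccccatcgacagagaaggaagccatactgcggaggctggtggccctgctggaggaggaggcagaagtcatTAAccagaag

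BCL2L12-207 held 11.3, 12.8 and 11.8% of the gene's TPM in SCR, 9.39, 13.2 and 10.8% in the DHX34 knockdown, and 19.98, 18.01 and 19.5% in the UPF1 knockdown. The UPF1 knockdown libraries stood well above the 6 others. The share rose upon UPF1 knockdown by 0.80 in log2 odds (SE 0.09, limma adjusted p 0.00951) and was called in each of 6 fits without 1 library and by diffSpliceDGE (adjusted p 0.0251). A pairing of UPF1 and SCR libraries by replicate number is not stated by the titles. It was taken as possible from the data, where correlations of same-numbered and differently numbered libraries overlapped. With replicate number as a block the change was the same size but not called (limma adjusted p 0.0841). It was not called either when transcripts of any share were tested (limma adjusted p 0.137). Upon DHX34 knockdown it was -0.13 (SE 0.15, limma adjusted p 0.753).

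BCL2L12-204 has the same stop, but only 7 bases before its last junction. It held 5.69, 5.24 and 5.63% in SCR, 6.29, 4.68 and 6.48% in the DHX34 knockdown, and 4.33, 6.65 and 6.31% in the UPF1 knockdown. The groups overlapped, with a log2 odds change of 0.04 (SE 0.18, limma adjusted p 0.923) upon UPF1 knockdown. Whether the 2 transcripts differ in their response was not tested.

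The main form BCL2L12-201 held 67.4, 67.7 and 67.7% in SCR, 70.7, 64.6 and 67.5% in the DHX34 knockdown, and 61.0, 61.5 and 59.9% in the UPF1 knockdown. Its share fell upon UPF1 knockdown by 0.43 in log2 odds (SE 0.06, limma adjusted p 0.0211), a call lost with the block (0.110), with no minimum share (0.329) and in each fit without 1 library. By diffSpliceDGE its change was -0.08 and not called. As a transcript it fell too, by 0.44 on the log2 scale (SE 0.04, edgeR adjusted p 0.00288 over 62497 transcripts), lost with the block (0.0270) and in 5 of 6 fits without 1 library, the exception being that without SCR replicate 2. BCL2L12-207 as a transcript was at 0.40 (SE 0.06, edgeR adjusted p 0.0107), short of the threshold of 0.005. The share of transcripts that skip exon 3, both forms together, was 17.6, 18.5 and 17.9% in SCR, 16.2, 18.4 and 17.9% in the DHX34 knockdown, and 25.4, 25.4 and 26.8% in the UPF1 knockdown, 7.88 percentage points above SCR (exact permutation p = 0.1, two-sided) with UPF1 depleted. With expected counts in place of TPM, the same libraries were separated.

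**Figure D4:**
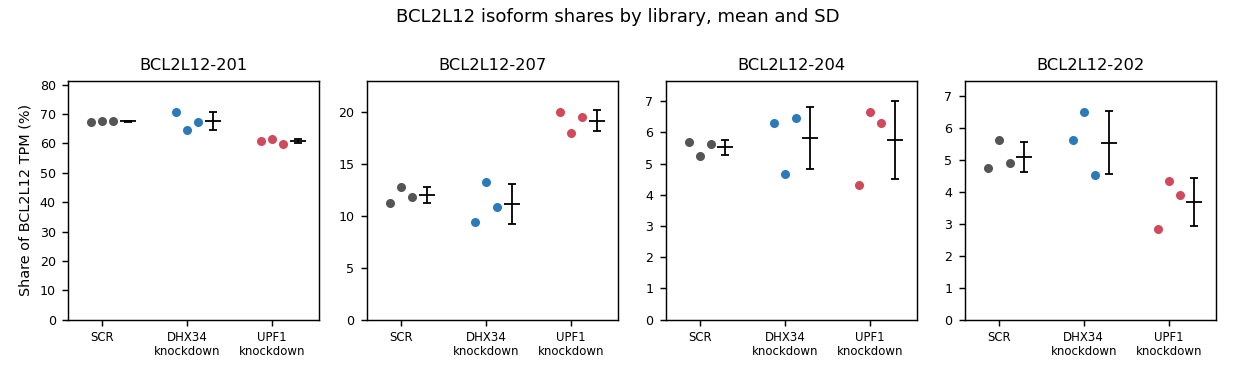
Share of BCL2L12 TPM (y axis, %) held by 4 transcripts in each library (points), with the mean and SD of each group (bars), y axes from 0. BCL2L12-207 stands at 18.01 to 19.98% in the UPF1 knockdown and 9.39 to 13.2% elsewhere, BCL2L12-201 is lower there at 59.9 to 61.5%, and BCL2L12-204 overlaps between groups.

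Over all members, 1 of 52 transcripts tested was called upon UPF1 knockdown (BCL2L12-201), where 2.59% of all transcripts were, and 0 of 50 upon DHX34 knockdown, where 0.0463% were by edgeR. DESeq2 and an adjusted p of 0.05 each gave 1 for DHX34. Of member shares, 3 of 23 were called upon UPF1 knockdown (BCL2L12-207, BCL2L12-201 and BID-208), beside 3.67% of all shares, and 0 of 26 upon DHX34 knockdown, beside 0.791%. Shares within a gene add up to the whole, so the calls of BCL2L12-207 and BCL2L12-201 are not independent. With replicate number as a block, 0 member transcripts and 0 member shares remained past the threshold for UPF1, as did 0 of all 62497 transcripts and 243 of 34204 shares. The lists of non-overlapping values are less strict: 8 of 23 member shares did not overlap between the UPF1 knockdown and SCR (26.3% of all shares) and 4 of 26 between the DHX34 knockdown and SCR (20.5%). For whole genes, 5 of 10 members did not overlap between the DHX34 knockdown and SCR (41.5% of all genes), 7 of 10 between the UPF1 knockdown and SCR (50.5%) and 6 of 10 between the knockdowns (45.7%). Of 47 products and biotype classes, 8 did not overlap with SCR in each knockdown, where 16.3% (DHX34) and 23.5% (UPF1) of 51779 over all genes of at least 1 TPM did not.

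**Figure D5:**
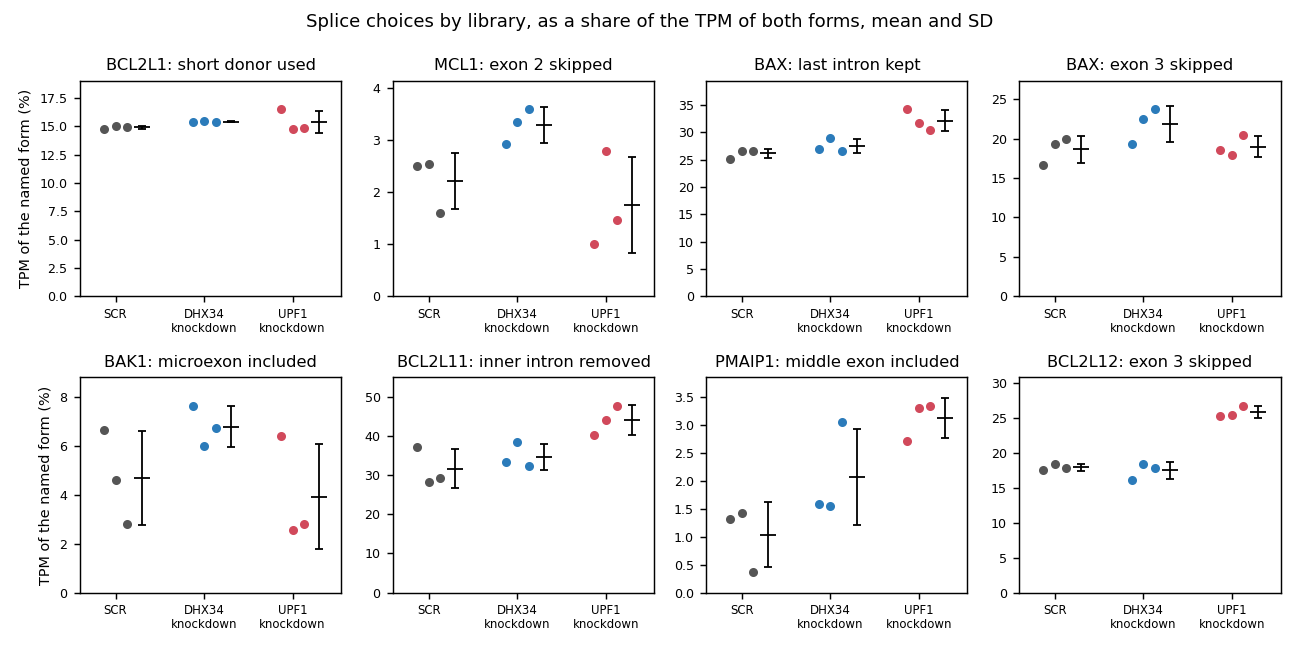
Percent of TPM held by the named form of 8 splice choices (y axes from 0) in each library (points), with the mean and SD of each group (bars). The UPF1 knockdown libraries lie above SCR for the BAX intron, the BCL2L11 inner intron, the PMAIP1 exon and BCL2L12 exon 3, and overlap with SCR for the BCL2L1 donor, MCL1 exon 2, BAX exon 3 and the BAK1 microexon.

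Among 16 listed regulators of the family, all tested, 3 fell and 2 rose upon DHX34 knockdown, and 3 fell and 5 rose upon UPF1 knockdown. Over all genes tested, 10.4% were called upon DHX34 knockdown and 25.3% upon UPF1 knockdown (12.4% up, 12.9% down). ATF4, the transcription factor of the integrated stress response, was at 384, 363 and 369 CPM in SCR, 315, 320.1 and 304 in the DHX34 knockdown, and 565, 576 and 572 in the UPF1 knockdown. Its target DDIT3 (CHOP) was at 27.4, 25.6 and 25.7, 21.3, 20.9 and 19.1, and 33.4, 33.6 and 34.2 CPM. Both genes were lowest in the DHX34 and highest in the UPF1 knockdown, without overlap, as were PMAIP1 and BBC3. The order is not particular to them: DIABLO and BCL2L13, from the lists below, also had it without overlap. How many of all genes had it was not counted. The log2 fold changes were -0.25 and 0.61 for ATF4 (edgeR adjusted p 0.00108 and 2.2e-08) and -0.36 and 0.36 for DDIT3 (0.00158 and 4.87e-05). A link between these genes and the members was not tested.

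Other regulators were called in 1 or both knockdowns. DYNLL1, the dynein light chain that tethers BIM, fell in both (-0.37 and -0.47), and TP73, a p53 relative, rose in both (0.59 and 0.79) from 0.862 TPM in SCR. HUWE1, a ubiquitin ligase of MCL1, rose upon DHX34 knockdown (0.35). GATA1, an erythroid factor that activates BCL2L1 and is also among the K562 markers, fell upon UPF1 knockdown (-0.29), as did the 14-3-3 gene YWHAZ (-0.15), whereas STAT5A (0.15) and DYNLL2 (0.22) rose. The medians of the list were -0.06 and 0.10.

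Downstream of the family, 21 genes of cytochrome c release and caspase activation were tested. Upon DHX34 knockdown APAF1, the apoptosome scaffold, rose (0.28) and 4 fell: CYCS, which encodes cytochrome c (-0.23), and the outer-membrane channels VDAC1 (-0.25), VDAC2 (-0.21) and VDAC3 (-0.24). Upon UPF1 knockdown CASP2 (0.36), DFFB (0.35) and DIABLO (0.19) rose, and VDAC1 (-0.26), VDAC3 (-0.17), CYCS (-0.14) and ENDOG (-0.30) fell. The shares called over all genes tested were 10.4% for DHX34 and 25.3% for UPF1. The medians were 0.00 and -0.01, against 0.02 and 0.02 over all genes.

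Of 13 other family genes, BCL2A1, BCL2L10 and BCL2L14 were too low to be tested in either comparison, and BIK too low in that with UPF1. BNIP3L, a mitophagy receptor, rose upon DHX34 knockdown (0.34). Upon UPF1 knockdown BCL2L2 (BCL-w, a guardian) rose by 0.33 and BCL2L13 by 0.22, and BNIP3 fell by 0.29. BCL2 itself was low, at 0.489 TPM in SCR, and its log2 fold change upon UPF1 knockdown was 0.49 (edgeR adjusted p 0.00954), not called. Of all genes tested, 10.4% were called for DHX34 and 25.3% for UPF1. The median over the other family genes tested was 0.03 for DHX34 and 0.05 for UPF1.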

How the data were processed

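RNA of 9 K562 cultures was sequenced after poly(A) selection. The authors quantified reads with salmon 1.5.2 (GC bias correction) against Ensembl GRCh38 release 93. The deposited tables give, for each transcript, an expected count (salmon's estimate, not whole), a TPM and an effective length. Tables of the authors' sleuth and SUPPA2 comparisons (effects, dPSI, p-values) were not used.

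Transcripts were joined by identifier to GENCODE 44 (GRCh38), which matched 97.9% of them and 98.1% of counts; 85.8% of matched transcripts kept their length. Expected counts were summed per gene and rounded. Genes and transcripts were tested across all features with edgeR 4.0.16 (R 4.3.3; quasi-likelihood, TMM, filterByExpr, minimum count 10) on the 6 libraries of a comparison, at the study's threshold of 0.005. Isoform shares were tested with limma 3.58.1 on log2 odds (pseudocount 0.1 TPM, gene mean at least 1 TPM, share at least 5% in a group; adjusted p at most 0.05). Shares of products, that is of transcripts with an identical coding sequence, and of biotype classes (mean at least 1%) used exact two-sided permutation tests. Splice choices were read from transcript models, not from junction reads, and reads shared between similar isoforms are divided by the model.

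Deviations of same-numbered SCR and UPF1 knockdown libraries from their group means correlated at 0.466, 0.114 and 0.297 (genes of at least 5 CPM). Differently numbered ones ranged from -0.364 to 0.203, so the ranges overlapped. Replicate number was taken as a possible pairing there, from the data, as the titles state none. For SCR with DHX34 knockdown the same-numbered values were -0.0655, -0.184 and -0.403.

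Alternatives used DESeq2 1.42.0, RLE size factors, no count filter, length-scaled counts, limma on log2(TPM + 0.5), removal of length and GC trends, a replicate block and omission of single libraries. Members, gene lists and the rule for named genes (all members; listed genes called in a knockdown; isoforms of at least 10% of a gene, called, or making a named product) were chosen with earlier results of these data known. Sequences were read from GRCh38 at annotated exon ends. The level of 1 marker gene is not reported here.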

Additional observations from a re-analysis of the deposited data

Results flagged for a closer look

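For 4 members the effects of the knockdowns differed from each other, as tested by edgeR between the libraries of both knockdowns, with no SCR library in the fit. The log2 fold change was 0.70 for PMAIP1 (higher in 3 of 3 UPF1 knockdown libraries than in any DHX34 knockdown library, adjusted p 8.88e-06), which moved in opposite directions from SCR. It was 0.40 for BBC3 (3 of 3, adjusted p 0.000211), 0.38 for BAK1 (3 of 3, adjusted p 2.64e-05) and -0.21 for MCL1 (lower in 3 of 3, adjusted p 0.000359). Over all 17435 genes tested, 17.4% were called between the knockdowns and 45.7% did not overlap. On TPM, 3 members were called higher and 0 lower, so the MCL1 call was lost. On TPM with library medians made equal, which was added after seeing the data, 2 members were called higher and 1 lower. BBC3 was not called against SCR in either knockdown. Groups of 3 libraries are too small for a test of single outlying libraries.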

How the results depend on the processing

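Of the log2 fold changes of members under the alternatives, 413 stayed on their side of the threshold, 15 passed it, 21 no longer did and 1 called value changed sign: BAX upon UPF1 knockdown, 0.0226 by limma on log2(TPM + 0.5). Among the 413, 39 changed sign without being called in either fit. For DHX34, the 1 member gene called became 5 at an adjusted p of 0.05, 2 with DESeq2, 3 with length and GC trends removed, and 0 with length-scaled counts, on TPM and on TPM with medians equal (added after seeing the data), and 0 to 1 without single libraries. Its 0 transcripts became 1 at 0.05 and with DESeq2, and 0 shares were called without any single library. For UPF1, the 5 genes became 3 with length-scaled counts and on TPM, and 3 to 5 without single libraries. Its 1 transcript became 7 at 0.05 and with DESeq2, 3 on TPM, 0 with the replicate block and 0 to 1 without single libraries. Its 3 shares became 1 with diffSpliceDGE, 0 with no minimum share, 0 with the block and 1 to 2 without single libraries. Between the knockdowns 4 genes were called, against 3 on TPM and 3 on TPM with medians equal. Without single libraries 4 to 5 were called, the fifth being BCL2L12 (-0.16) without DHX34 knockdown replicate 3. The 8 product and class shares that did not overlap became 4 for DHX34 with only transcripts of unchanged length (11.2% over all genes), and 8 to 15 (DHX34, 25.2 to 26.3% over all genes) or 12 to 19 (UPF1, 31.2 to 33.8%) without single libraries, where fewer libraries overlap less often by construction. The cause of the other changes was not tested.

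Over all features, calls for DHX34 numbered 1768 genes, against 4403 at 0.05, 2874 with DESeq2, 3396 without the count filter, 741 with length-scaled counts, 1036 on TPM, 550 on TPM with medians equal and 1007 with the block. For UPF1 they numbered 4345, against 6917 at 0.05, 2762 with length-scaled counts and 2881 on TPM with medians equal. Between the knockdowns 3026 became 5691 at 0.05, 1674 with length-scaled counts, 1509 on TPM and 1396 with medians equal. Transcripts called for DHX34, 28, became 1582 at 0.05, 2328 with DESeq2, 110 without the filter, 196 on TPM and 0 with the block, and for UPF1 1620 became 6435, 6128 with DESeq2 and 0 with the block. Shares for DHX34, 263, became 445 with diffSpliceDGE, 162 with no minimum and 61 with the block, and for UPF1 1255 became 477 with no minimum and 243 with the block. Apart from the UPF1 transcript and shares, the replicate block changed no call of a member. For the comparisons with the DHX34 knockdown, whether libraries of the same number were paired is not known.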
